A study of Mus musculus with 14 samples.

Results

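The data describe 6 genes of latent TGF-β binding and matrix storage in 4T1 tumor spheroids. They are the latent TGF-β binding proteins *Ltbp1*, *Ltbp2*, *Ltbp3* and *Ltbp4*, the activator *Thbs1* and the microfibril gene *Fbn1*. The genes were taken by symbol from a table of read counts, and all 6 were among its 19525 genes. The 4T1 line comes from a mouse mammary tumor and models triple-negative breast cancer, and mRNA of the cytosolic lysate was sequenced in 14 libraries from spheroids kept for 5 days in lung-like medium. The control line, which carried a scrambled hairpin, was grown with 700 µM added aspartate (ASP shSCR, n = 4) or without it (NoASP shSCR, n = 3). Knockdown lines were kept with aspartate alone, ASP shGRIN2D (n = 3), targeted at the NMDA receptor gene *Grin2d*, and ASP shDHPS (n = 4), targeted at *Dhps*, whose product carries out the first step of eIF5A hypusination. Each hairpin was carried by a single puromycin-selected, polyclonal line, so an effect of a hairpin and of its line cannot be told apart. The cells were seeded over soft agar, and the medium held horse serum, Matrigel and rat-tail collagen.

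TGF-β leaves the cell in a latent form, as a dimer held by its own propeptide. The propeptide is joined by disulfide bonds to an LTBP, and the complex is laid down on fibronectin and on microfibrils of fibrillin-1, the product of *Fbn1*. LTBP1 and LTBP3 are the main carriers, LTBP4 is a weaker one and also serves elastic fibre assembly, and LTBP2 does not carry latent TGF-β but binds fibrillin-1. Thrombospondin-1, the product of *Thbs1*, can bind the propeptide and release the active cytokine. Integrins with the αv chain and several proteinases are the other known routes of release. The study asked whether aspartate acts through the NMDA receptor and eIF5A hypusination on TGF-β signaling and collagen, and the 4 comparisons below ask whether the mRNA of the storage genes differed with aspartate or with either hairpin.

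Libraries held 12731123 to 23231378 counts. The hairpin against *Dhps* left 5.46 to 9.08 CPM (counts scaled to a common library total) of its target, against 16.7 to 22.1 CPM in ASP shSCR (adjusted p = 8.31e-06 by the quasi-likelihood test of edgeR, with adjustment by Benjamini-Hochberg as in all values below). *Grin2d* was low everywhere, at 2.06 to 3.13 CPM in ASP shGRIN2D and 3.23 to 4.16 CPM in ASP shSCR, and this difference did not pass the test (adjusted p = 0.516). The log2 fold change was -0.55 (standard error 0.28), from 37 to 47 and 53 to 76 counts. The study lists qPCR of *Grin2d* in 4T1 spheroids as a separate check of this hairpin. All 6 markers of mammary tumor epithelium were expressed, with means between 80.2 and 1546 CPM. Of 7 fibroblast markers only *Pdgfra* reached a mean of 1 CPM (29.1 CPM), while *Col1a1* averaged 0.58 CPM, and the endothelial genes *Pecam1* and *Cdh5* averaged 0.25 and 0.031 CPM. The leukocyte gene *Ptprc* averaged 0.27 CPM and the platelet gene *Itga2b* 1.05 CPM, while *Cd68*, a lysosomal gene high in macrophages, averaged 10.7 CPM (5.51 to 15.99). The sum of these 3 genes, the only ones in the table of 6 listed leukocyte and platelet markers, was 13.8 to 17.8 CPM in ASP shDHPS, 6.69 to 13.9 CPM in ASP shSCR, 9.04 to 11.3 CPM in ASP shGRIN2D and 10.7 to 11.8 CPM in NoASP shSCR. Its part in the results below was not tested. There were 3 libraries that stood apart. ASP shSCR 2 and NoASP shSCR 2 lay together at an end of the first principal component (-45.8 and -33.5, against -14.8 to 37.4 in the others), and ASP shDHPS 1 had lower values for GC-rich genes (-0.18 log2 units per 10 percentage points of GC, against -0.02 to 0.06 in the other 13 libraries). Several values below are also given without these libraries.

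*Thbs1* and *Ltbp3* were the most abundant of the 6 genes and *Fbn1* was nearly absent. Per kilobase of exon, the mean level over the 14 libraries was 109 CPM for *Thbs1* and 78.2 CPM for *Ltbp3*. The mean per kilobase was 22.1 CPM for *Ltbp4*, 21.6 CPM for *Ltbp1* and 3.32 CPM for *Ltbp2*, so that the gene that does not carry latent TGF-β had the lowest level of the 4 LTBP genes. The ranges over libraries did not overlap between *Ltbp2*, at 1.85 to 7.63 CPM per kilobase, and *Ltbp1*, at 16.3 to 25.1 CPM per kilobase. *Ltbp1* and *Ltbp4* could not be ordered, since *Ltbp4* ranged from 10.8 to 27.6 CPM per kilobase.

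*Fbn1* had 34 counts in all 14 libraries together. ASP shSCR replicates 1 to 4 had 3, 5, 6 and 1 counts, NoASP shSCR replicates 2 to 4 had 5, 2 and 2, ASP shGRIN2D replicates 1 to 3 had 0, 4 and 1, and ASP shDHPS replicates 1 to 4 had 0, 0, 2 and 3. In the 3 libraries with no count, a level of up to 0.155, 0.158 and 0.200 CPM remains possible from counting error alone. At this depth a difference in *Fbn1* was not detectable, and no fold is given. In the annotation, 2442 exon bases of *Fbn1* are shared with *Gm9913* on the opposite strand, 764 of *Ltbp2* with *D030025P21Rik* and 208 of *Thbs1* with *Gm29233*. Whether strand was used in counting is not given in the sources used here, so part of these counts could belong to the partner gene.

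**Figure D1:**
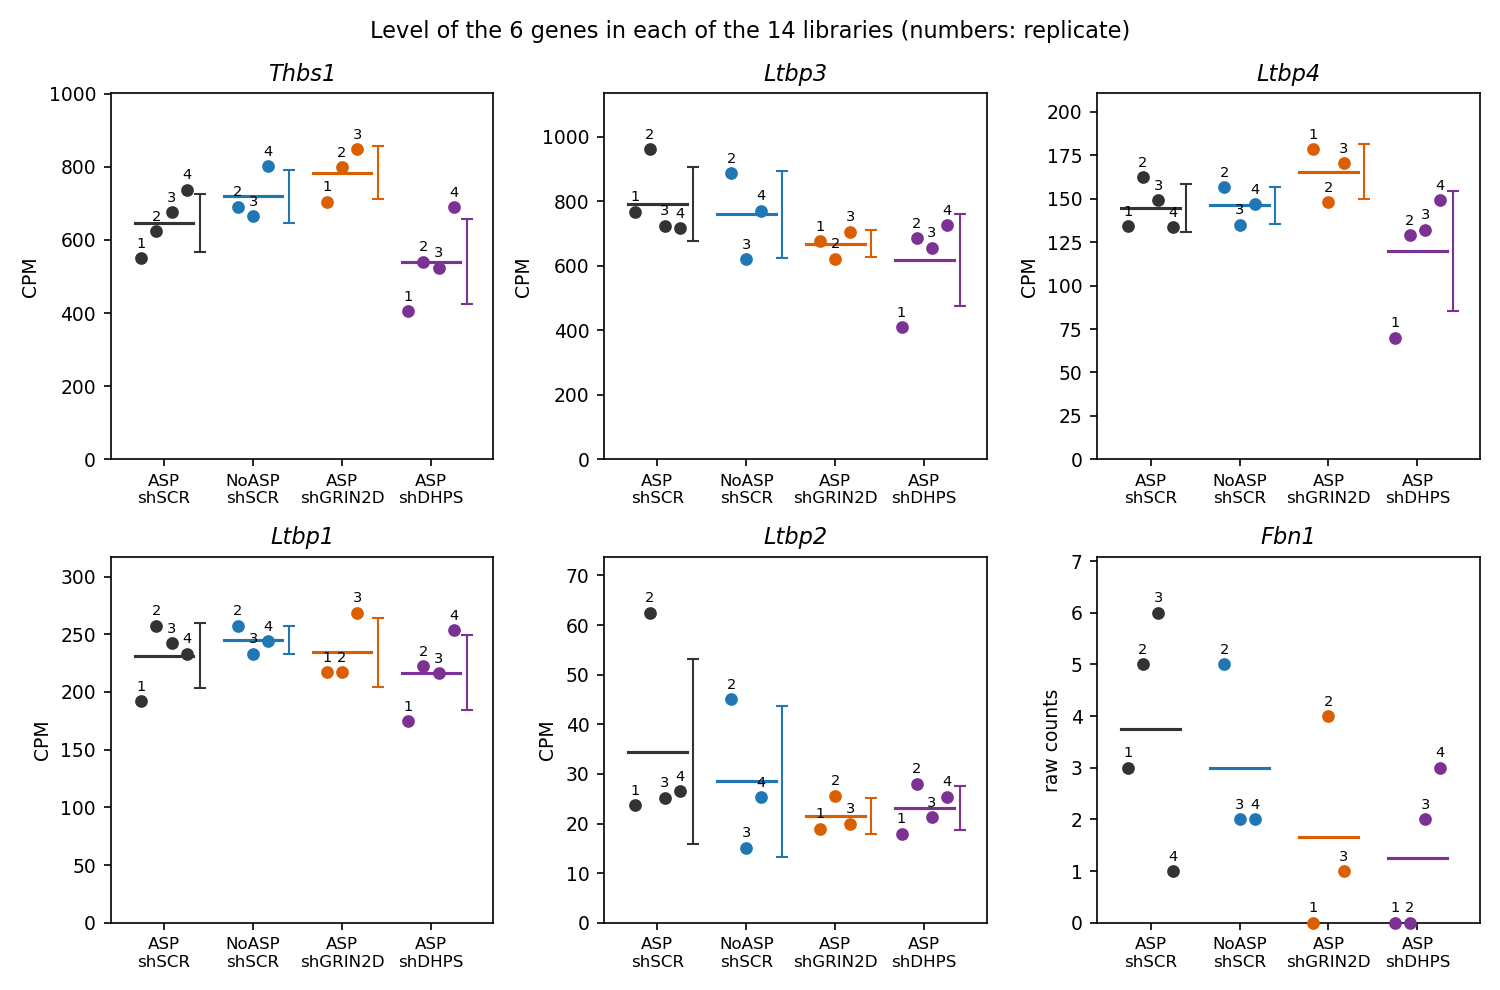
Each point is 1 library, marked with its replicate number and placed by group on the x axis. The y axis gives CPM for 5 genes and raw counts for *Fbn1*, horizontal lines are group means and bars at the side of each group are 1 SD. *Thbs1* in ASP shDHPS (406 to 690.0 CPM) lies below every ASP shGRIN2D library (705 to 848 CPM), *Ltbp2* is highest in ASP shSCR 2 (62.5 CPM), and ASP shDHPS 1 is the lowest library for *Ltbp1*, *Ltbp3*, *Ltbp4* and *Thbs1*.

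*Ltbp1* varied least among the libraries. It measured 192, 258, 242 and 233 CPM in ASP shSCR 1 to 4, and 258, 233 and 244 CPM in NoASP shSCR 2 to 4. In ASP shGRIN2D 1 to 3 it was at 217, 217 and 269 CPM, and in ASP shDHPS 1 to 4 at 175, 222, 216 and 254 CPM. All neighboring groups overlapped in the order NoASP shSCR, ASP shGRIN2D, ASP shSCR and ASP shDHPS. The highest library was 1.54-fold above the lowest, and the SD within groups was 0.18 on the log2 scale. *Ltbp2* was the most variable, with a 4.13-fold range and a within-group SD of 0.54. The same SD was 0.22 for *Thbs1*, 0.26 for *Ltbp3* and 0.29 for *Ltbp4*.

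The study places the factor CREB downstream of the NMDA receptor, and *Ltbp1* was the only one of the 5 genes with a promoter window in the RefSeq table (GRCm38.p6) that held the full cAMP response element, TGACGTCA, which CREB binds. A window spans 250 bases before to 50 bases after an annotated start, and 8 windows belonged to these 5 genes. The element was searched on both strands and was found in 1.79% of all 32851 windows. In the *Ltbp1* window that holds it, the element begins at base -73 from the annotated start of that window. This start lies beyond the end of the sequence shown, so -73 is not counted from that end. The *Ltbp1* sequence before the first annotated start of the gene is shown because it holds this match, with the element in capitals (GRCm38.p6, chr17:75005279-75005479, plus strand).
*Ltbp1* upstream: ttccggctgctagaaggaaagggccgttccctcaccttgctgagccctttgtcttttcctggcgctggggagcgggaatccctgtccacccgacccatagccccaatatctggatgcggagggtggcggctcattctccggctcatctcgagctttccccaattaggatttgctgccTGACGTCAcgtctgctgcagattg
The AP-1 motif TGANTCA (7.81% of all windows) was present in the window of *Ltbp3*, across its start site, and the SMAD motif CAGAC (49.6% of all windows) in windows of *Ltbp1*, *Ltbp2* and *Ltbp3*. A match describes the letters of the window and not binding. The level of *Ltbp1* was 231 ± 28.15 CPM with aspartate and 245 ± 12.2 CPM without it (SD, n = 4 and 3), as described next.

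None of the 6 genes differed by the test between control spheroids with and without added aspartate. In ASP shSCR minus NoASP shSCR, no gene of the table passed the edgeR quasi-likelihood test (0 of 19525, 0%), 424 genes had an unadjusted p under 0.05, and DESeq2 called 0 of the 6 genes. None of them had an unadjusted p under 0.05. The log2 fold change was -0.08 for *Ltbp1* (standard error 0.12), 0.06 for *Ltbp3* (0.15, and 0.19 without NoASP shSCR 2), -0.01 for *Ltbp4* (0.16) and -0.15 for *Thbs1* (0.13). The 95% intervals reached from -0.33 to 0.16 for *Ltbp1* and from -0.43 to 0.12 for *Thbs1*. The median over the 5 genes without *Fbn1* was -0.01, beside 0.00087 over all genes.

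Of the storage genes with a fold, *Ltbp2*, the fibrillin-1 binder, alone kept its direction in all same-numbered pairs. It measured 23.7, 62.5, 25.2 and 26.5 CPM in ASP shSCR 1 to 4, and 45.0, 15.1 and 25.4 CPM in NoASP shSCR 2 to 4. Both replicate 2 libraries were high, and the groups overlapped. The fitted log2 fold change, 0.27 with an error of 0.30 (adjusted p = 1), turned to -0.18 without ASP shSCR 2 and to -0.03 without NoASP shSCR 3, and was 0.77 without NoASP shSCR 2. Same-numbered libraries of these groups deviated together across genes. Their ratio of ASP shSCR to NoASP shSCR for *Ltbp2* was 1.39, 1.67 and 1.04 for replicates 2, 3 and 4, higher with aspartate in 3 of 3 pairs. How often all pairs had the same direction over all genes was not counted. With the replicate number as a block in the 7 shSCR libraries alone, *Ltbp2* passed the test (log2 fold change 0.43, adjusted p = 0.00269), beside 64 genes called in all (0.328%), in a fit with 2 residual degrees of freedom per gene. It did not pass without pair 2 (0.40, adjusted p = 0.542) or pair 3 (0.29, adjusted p = 0.471), and passed without pair 4 (0.59, adjusted p = 2.85e-05). These fits rest on the remaining pairs alone, since ASP shSCR 1 has no partner, and have still fewer residual degrees of freedom. The block fitted to all 14 libraries did not call it (0.39, adjusted p = 1).

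**Figure D2:**
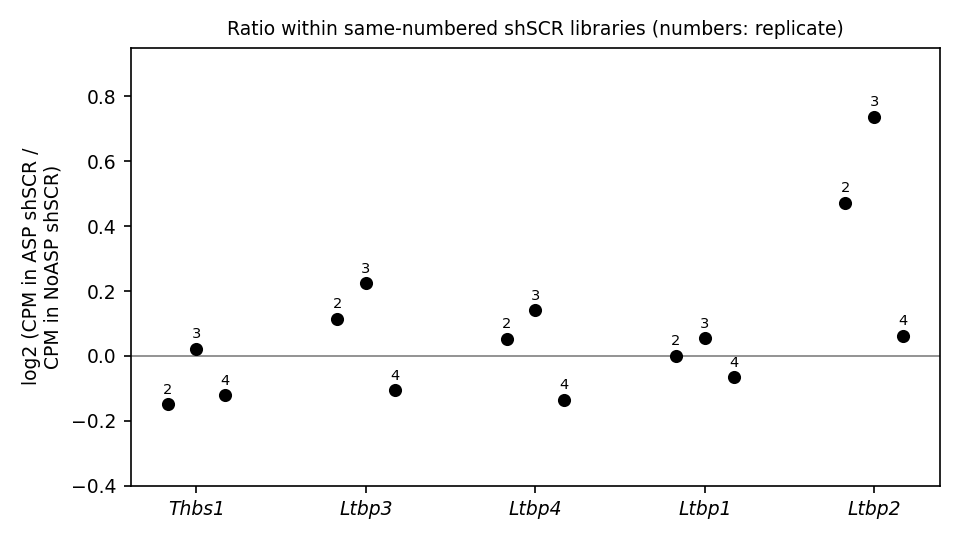
The y axis is the log2 ratio of CPM in ASP shSCR to CPM in NoASP shSCR within libraries of the same replicate number, and the x axis gives the gene. *Ltbp2* lies above 0 in 3 of 3 pairs (0.47, 0.74 and 0.06), while each of the other 4 genes has pairs on both sides of 0. The share of all genes with every pair on the same side was not counted.

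Under the hairpin against *Grin2d*, none of the storage genes passed the test, and their fitted values lay on both sides of the control. In ASP shGRIN2D minus ASP shSCR, 226 of all genes were called (1.16%), and 0 of the 6 genes were called by edgeR or by DESeq2. Unadjusted p fell under 0.05 for *Ltbp2* (0.0368) and *Thbs1* (0.0486). The median log2 fold change of the 5 genes without *Fbn1* was 0.02, beside 0 over all genes. It was -0.11 when *Fbn1*, with its few counts, was included as fitted.

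*Thbs1* measured 705, 799 and 848 CPM in ASP shGRIN2D 1 to 3, and 551, 624, 676 and 737 CPM in ASP shSCR 1 to 4. Of the 3 knockdown libraries, 2 lay above every control library. The means were 784 ± 72.9 and 647 ± 79.2 CPM (SD, n = 3 and 4), with a log2 fold change of 0.28 and a standard error of 0.13, not past the threshold (adjusted p = 0.473). *Ltbp3*, a main carrier of latent TGF-β, was at 676, 623 and 706 CPM in ASP shGRIN2D and at 768, 962, 725 and 717 CPM in ASP shSCR. These libraries did not overlap, but the log2 difference, -0.25 with a standard error of 0.15, was not past the threshold (adjusted p = 0.599), and it was -0.14 without ASP shSCR 2. *Ltbp4* measured 179, 148 and 170.4 CPM against 134, 163, 149 and 134 CPM, a log2 difference of 0.19 (standard error 0.16, adjusted p = 0.712). *Ltbp1* had a log2 fold change of 0.02 (standard error 0.12, adjusted p = 0.987).

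*Ltbp2* had the largest fitted difference of the 5 genes in this comparison, and it rested on a single control library. It measured 18.95, 25.6 and 19.996 CPM in ASP shGRIN2D 1 to 3. Its log2 fold change was -0.68 (standard error 0.31, adjusted p = 0.433), and -0.22 without ASP shSCR 2. The summed level of the 6 epithelial markers was 3618 to 3907 CPM in ASP shGRIN2D and 4874 to 4964 CPM in ASP shSCR, and its part in these values was not tested. In bulk RNA, fewer cells of a kind and less RNA per cell cannot be told apart.

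**Figure D3:**
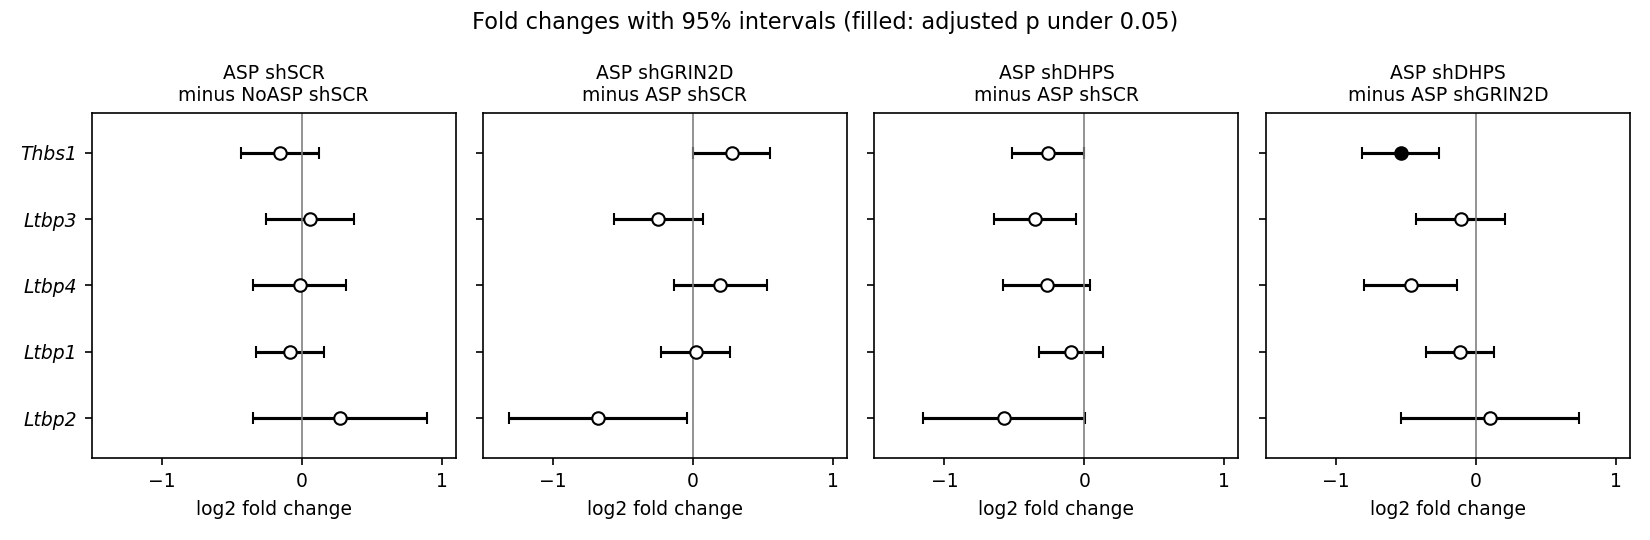
Points are log2 fold changes of the 5 genes with counts enough for a fold, 1 panel per comparison, with 95% intervals as bars and filled points for an adjusted p under 0.05. The only filled point is *Thbs1* in ASP shDHPS minus ASP shGRIN2D, at -0.54, and the intervals of *Ltbp2* are the widest.

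Under the hairpin against *Dhps*, all 5 measurable genes had fitted values below the control, and none passed the test. In ASP shDHPS minus ASP shSCR, 824 of all genes were called (4.22%), and 0 of the 6 genes were called by edgeR or DESeq2. Their median log2 fold change was -0.27 without *Fbn1* and -0.31 with it, beside 0.0046 over all genes. Unadjusted p fell under 0.05 for *Ltbp3* (0.0194) and *Thbs1* (0.0474). The summed level of epithelial markers was 3711 to 4363 CPM in ASP shDHPS, below the control libraries here too, and its part in these values was not tested.

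*Ltbp3* measured 409.9, 685, 657 and 726 CPM in ASP shDHPS 1 to 4. Replicate 1 was far below the others, and replicate 4 lay within the control range. The fitted difference was -0.36 on the log2 scale (standard error 0.14, adjusted p = 0.167), and it was -0.20 without ASP shDHPS 1. *Ltbp4*, which also serves elastic fibres, measured 70.0, 129, 132 and 149 CPM, again lowest in replicate 1. Its log2 fold change was -0.27 (standard error 0.15, adjusted p = 0.328) and -0.08 without ASP shDHPS 1.

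*Thbs1* was at 406, 541, 524 and 690.0 CPM in ASP shDHPS 1 to 4, a mean of 540.2 ± 117 CPM (SD, n = 4) that overlapped the control. On the log2 scale the difference was -0.26 (standard error 0.12, adjusted p = 0.252). It was -0.14 without ASP shDHPS 1, and it passed the test without ASP shDHPS 4 (-0.40, adjusted p = 0.0483). *Ltbp1* had a log2 fold change of -0.09 (standard error 0.11, adjusted p = 0.683). *Ltbp2* measured 17.9, 28.05, 21.2 and 25.4 CPM, and the fitted value of -0.58 (standard error 0.28, adjusted p = 0.261) was -0.12 without ASP shSCR 2.

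ASP shDHPS 1 was the lowest of the 14 libraries for 4 of the 5 genes. Relative to the mean of the other 3 ASP shDHPS libraries, *Ltbp4* differed by -0.96 log2 units, where the median of 124 genes of the same GC content, within 1 percentage point, was -0.41. For *Ltbp3* the value was -0.75, beside a median of -0.26 over 646 such genes. For *Thbs1*, which is less GC-rich, it was -0.52 beside 0.02 over 1104 genes. These 3 genes lay below the 10th percentile of their GC class (-0.84, -0.74 and -0.39), while *Ltbp1* at -0.40 and *Ltbp2* at -0.46 lay above it (-0.50 and -0.75). With each library corrected for GC content and length, the log2 fold change against ASP shSCR was -0.19 for *Ltbp3*, -0.14 for *Ltbp4* and -0.23 for *Thbs1*.

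The direct comparison of both knockdowns, in which the shared control drops out, gave the only call. In ASP shDHPS minus ASP shGRIN2D, 550 of all genes were called (2.82%), and *Thbs1* was called by edgeR and by DESeq2, 1 of the 6 genes. It was lower in ASP shDHPS, at 540.2 ± 117 CPM (SD, n = 4), than in ASP shGRIN2D, at 784 ± 72.9 CPM (SD, n = 3). The highest ASP shDHPS library, at 690.0 CPM, lay just below the lowest ASP shGRIN2D library, at 705 CPM. This is a 1.45-fold difference, -0.54 on the log2 scale, with a 95% interval of -0.81 to -0.26, a standard error of 0.13 and an adjusted p of 0.0280. This comparison tests whether the effects of both hairpins on *Thbs1* differ, and neither effect passed the test against ASP shSCR.

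The call on *Thbs1* needed nearly all of the libraries. It was lost without ASP shGRIN2D 1, 2 or 3 (adjusted p = 0.0512, 0.101 and 0.152) and without ASP shDHPS 1, 2 or 3 (adjusted p = 0.0608, 0.0582 and 0.0736). It held without ASP shDHPS 4 (-0.68, adjusted p = 0.00306). The fold change stayed between -0.68 and -0.42 in these 7 fits, in which 209 to 577 genes of the table were called. With the correction for GC content and length *Thbs1* was still called, with a log2 fold change of -0.51 (adjusted p = 0.0122).

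*Ltbp4* had the second largest difference between the knockdowns. Its log2 fold change was -0.46 (standard error 0.16), with an unadjusted p of 0.00825 and an adjusted p of 0.140 by the edgeR test. The libraries overlapped, since ASP shDHPS 4, at 149 CPM, was just above ASP shGRIN2D 2, at 148 CPM. The difference passed the test without ASP shDHPS 4 (-0.59, adjusted p = 0.0491) and with the correction for GC content and length (-0.34, adjusted p = 0.0473), and it was -0.28 without ASP shDHPS 1 (adjusted p = 0.178). *Ltbp1* (-0.11, standard error 0.12), *Ltbp3* (-0.11, standard error 0.15) and *Ltbp2* (0.10, standard error 0.31) did not pass the test, with adjusted p between 0.688 and 0.928. Without ASP shDHPS 1 these values were -0.02, 0.045 and 0.21, so that *Ltbp3* turned direction. The median of the 5 genes without *Fbn1* was -0.11, beside 0.01 over all genes.

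**Figure D4:**
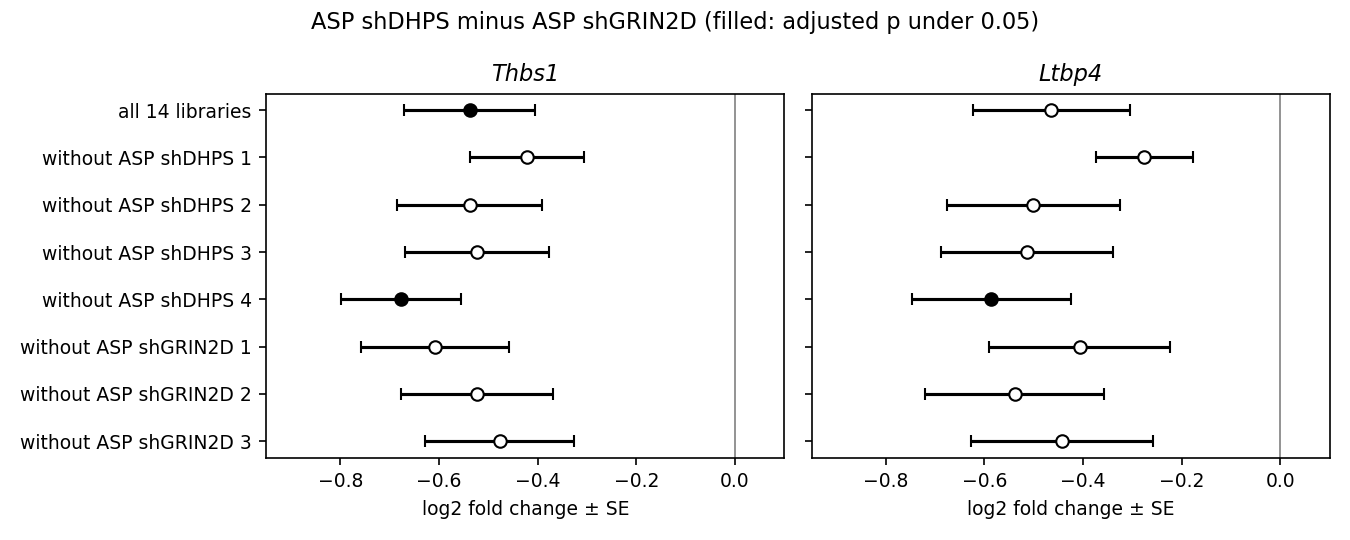
Log2 fold changes of *Thbs1* and *Ltbp4* in ASP shDHPS minus ASP shGRIN2D, on the x axis with 1 standard error as bars, from all 14 libraries and without each library of these groups in turn on the y axis. Filled points have an adjusted p under 0.05: *Thbs1* is filled with all libraries and without ASP shDHPS 4, and *Ltbp4* only without ASP shDHPS 4.

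The other genes of this system were described from a list. It was chosen with earlier results of these data known, so its counts of calls are a description and not a test. Of 47 listed genes of TGF-β ligands, microfibrils and elastic fibres, activators, other thrombospondins and their receptors, and matrix binders of TGF-β, 34 were in the table and 30 had more than 3 counts in a library. With aspartate, 0 of them were called by edgeR (0 at an unadjusted p under 0.05, 0 by DESeq2). In ASP shGRIN2D minus ASP shSCR 4 were called by edgeR, 3 higher and 1 lower, beside 1.16% of all genes. DESeq2 called 6 of them there, beside 440 of all 19525 genes. The median log2 fold change was 0.06 over the 30, beside 0 over all genes. In ASP shDHPS minus ASP shSCR 5 were called by edgeR, all lower, beside 4.22% of all genes, with a median of -0.10 beside 0.0046. DESeq2 called 6 there, *Tgfb2* among them and higher, beside 1398 of all 19525 genes. In the comparison of both knockdowns edgeR called 5, each lower in ASP shDHPS, beside 2.82% of all genes. The median there was -0.21 beside 0.01, and DESeq2 called 4, beside 920 of all 19525 genes.

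Of the 3 ligands, the cargo of the LTBPs, *Tgfb3* rose in ASP shGRIN2D. It measured 104.8, 83.3 and 104.0 CPM there, and 67.9, 73.9, 69.3 and 67.3 CPM in ASP shSCR. This log2 fold change of 0.48 (standard error 0.10) passed the test (adjusted p = 0.0101), and the call was lost without ASP shGRIN2D 1 or 3 (adjusted p = 0.107 and 0.105). In ASP shDHPS, at 62.5, 62.4, 70.6 and 62.9 CPM, *Tgfb3* did not differ from the control by the test (-0.11, standard error 0.09), and it was lower than in ASP shGRIN2D (-0.59, adjusted p = 0.000921). *Tgfb1*, the ligand first purified from platelets, was at 137 to 151 CPM in ASP shSCR and at 151 to 175 CPM in ASP shGRIN2D. In ASP shDHPS it was at 81.3 CPM in replicate 1 and 156 to 157 CPM in the other 3 libraries. Its log2 fold changes were 0.13 and -0.08 against ASP shSCR, with adjusted p of 0.811 and 0.821, and the second turned to 0.11 without ASP shDHPS 1. *Tgfb2* had 10 to 49 counts per library, with log2 fold changes of 1.00 and 1.11 in ASP shGRIN2D and ASP shDHPS that did not pass the edgeR test (adjusted p = 0.239 and 0.0561). The second was called in 4 of 16 alternative settings, with a lowest adjusted p of 0.0129. Among these were DESeq2 (0.0237), the fit without ASP shSCR 3 (0.0498) and the correction for GC content and length (0.0437).

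*Itgb3*, the β3 chain that pairs with αv in a receptor for latent TGF-β and for thrombospondin-1, moved in opposite directions under the 2 hairpins. It measured 40.5, 33.5 and 28.9 CPM in ASP shGRIN2D, 21.7, 25.2, 21.6 and 16.1 CPM in ASP shSCR, and 11.1, 9.06, 8.10 and 8.06 CPM in ASP shDHPS. The libraries of the 3 groups did not overlap. The log2 fold change was 0.70 (standard error 0.15, adjusted p = 0.0190) in ASP shGRIN2D and -1.22 (0.15, adjusted p = 6.40e-05) in ASP shDHPS, and -1.92 (0.16, adjusted p = 4.89e-07) between the knockdowns. The rise in ASP shGRIN2D was not past the threshold without ASP shSCR 4 (adjusted p = 0.0759) or ASP shGRIN2D 1 or 2 (adjusted p = 0.207 and 0.0688), while the fall and the difference were called in each fit that left out a library.

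Of the proteinase genes, *Mmp9*, a gelatinase, fell under both hairpins, and *Plau*, urokinase, fell under the hairpin against *Dhps*. *Mmp9* measured 25.5, 32.5 and 35.2 CPM in ASP shGRIN2D and 22.0, 22.3, 27.4 and 27.9 CPM in ASP shDHPS, against 56.1, 109.7, 55.9 and 61.4 CPM in ASP shSCR. Its log2 fold changes of -1.19 (standard error 0.21, adjusted p = 0.00300) and -1.51 (0.19, adjusted p = 9.13e-05) were also called without each library, ASP shSCR 2 included. *Plau* fell by 0.32 on the log2 scale in ASP shDHPS (standard error 0.08, adjusted p = 0.0232), from 198 ± 8.83 to 158 ± 15.8 CPM (SD, n = 4 each). The call on *Plau* was lost without ASP shSCR 2 or 4 (adjusted p = 0.0816 and 0.0527) or ASP shDHPS 2 or 3 (adjusted p = 0.0613 and 0.0944), without both shSCR replicate 2 libraries (adjusted p = 0.0823) and in the fit of only the 2 groups (adjusted p = 0.0764). In ASP shGRIN2D its log2 fold change was -0.33 (adjusted p = 0.0766).

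*Thbs2*, the closest relative of *Thbs1* in the list, also differed between the knockdowns, at a far lower level. It had 52 to 69 counts in ASP shGRIN2D, 11 to 36 in ASP shSCR and 18 to 21 in ASP shDHPS. The log2 fold change was 1.55 in ASP shGRIN2D (standard error 0.35, adjusted p = 0.0282), -0.10 in ASP shDHPS (0.36, adjusted p = 0.920) and -1.65 between the knockdowns (0.36, adjusted p = 0.0108). The first was not called without ASP shSCR 2 or 4 (adjusted p = 0.0701 and 0.0942) or any 1 of the ASP shGRIN2D libraries (adjusted p = 0.0681, 0.153 and 0.109), and the last not without ASP shGRIN2D 2 (adjusted p = 0.0634).

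Among matrix genes that hold the store, *Tgm2*, the transglutaminase that crosslinks LTBP1 to the matrix, and *Fbln2*, which binds fibrillin-1 and elastic fibres, were lower in ASP shDHPS. *Tgm2* measured 67.6, 86.5, 91.3 and 85.9 CPM there, against 120.3, 156.7, 108 and 119 CPM in ASP shSCR, without overlap. Its log2 fold change was -0.61 (standard error 0.12, adjusted p = 0.00436), and -0.72 (0.12, adjusted p = 0.00171) relative to ASP shGRIN2D. *Fbln2* fell from 119.6 ± 23.6 to 76.2 ± 9.40 CPM (SD, n = 4 each), a log2 fold change of -0.65 (0.13, adjusted p = 0.00470). In ASP shGRIN2D *Fbln2* was at 83.5 CPM on average, a log2 difference of -0.52 that did not pass the test (unadjusted p = 0.00103, adjusted p = 0.0748), and the difference between the knockdowns was -0.13 (adjusted p = 0.685). *Fn1*, which encodes fibronectin, was at 403, 701, 904 and 1053 CPM in ASP shDHPS and at 968, 1449 and 1813 CPM in ASP shGRIN2D. In ASP shSCR it was at 811, 1562, 1397 and 1192 CPM. Against ASP shSCR neither hairpin passed the edgeR test, at 0.19 in ASP shGRIN2D (adjusted p = 0.848) and -0.70 in ASP shDHPS (adjusted p = 0.0819). The difference of -0.88 between the knockdowns on the log2 scale (0.24) was just past the threshold (adjusted p = 0.0473) and overlapped between groups. It was not called by DESeq2 (adjusted p = 0.0645), with library size alone (0.0627) or with edgeR's filter on low counts (0.0700), nor without ASP shGRIN2D 2 or 3 (0.139 and 0.289) or ASP shDHPS 1, 2 or 3 (0.0976, 0.104 and 0.0610).

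**Figure D5:**
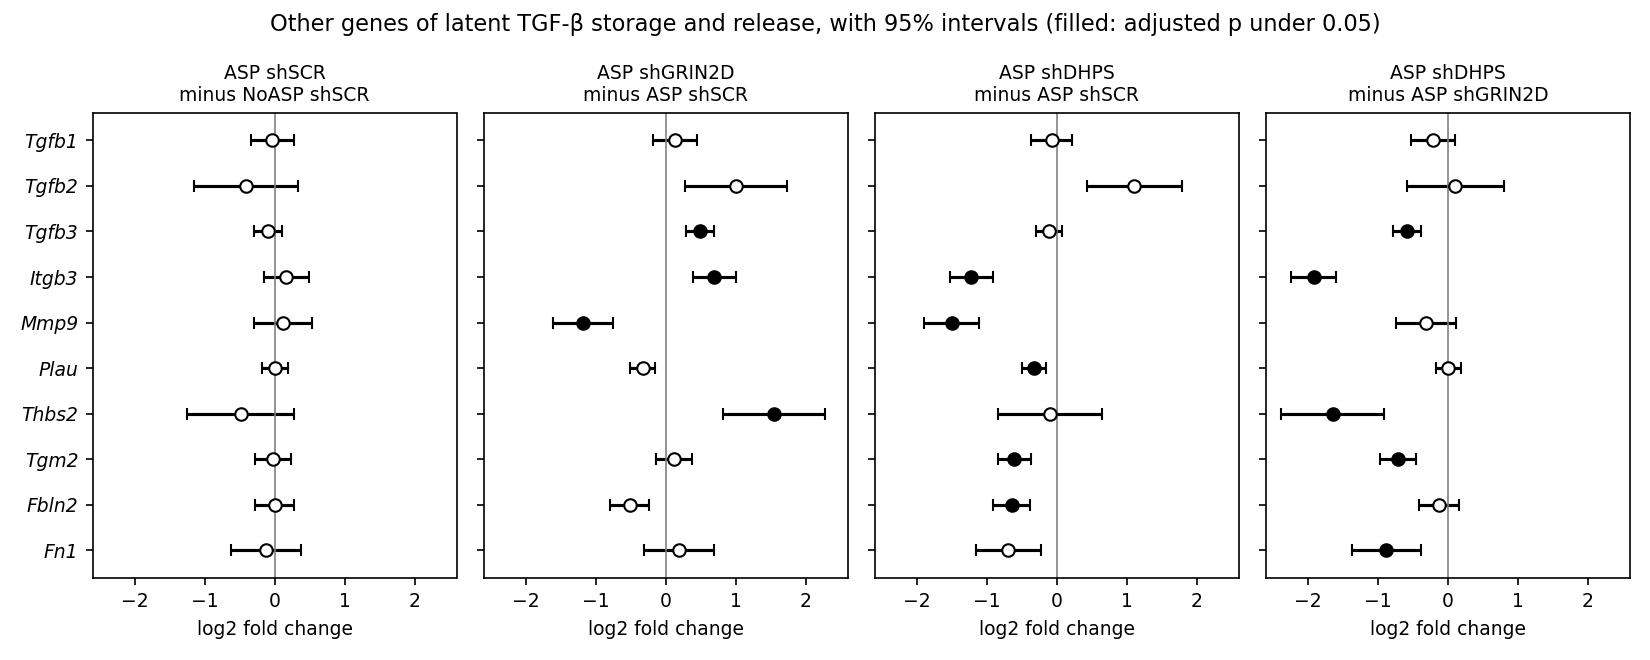
Log2 fold changes with 95% intervals for the 3 TGF-β ligands and the 7 other listed genes called in a comparison, 1 panel per comparison, with filled points for an adjusted p under 0.05. The first panel has no filled point, and *Itgb3* is filled on the right in ASP shGRIN2D (0.70) and on the left in ASP shDHPS (-1.22).

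Profiles over the 14 libraries were compared as a description, since all genes share the same libraries and their depth. Among 9804 genes whose mean reached 5 CPM, those most like *Ltbp3* were *Dennd4b*, *Agap1* and *Bmp1* (Pearson r = 0.97 for each), and those most like *Ltbp4* were *Usp19*, *Tcf7l1* and *Cic* (0.97, 0.97 and 0.96). *Bmp1* is itself a listed activator, a proteinase that can cut LTBP1. For *Ltbp1* they were *Sltm*, *Dst* and *Rbbp6* (0.96, 0.95 and 0.94), for *Ltbp2* *Smg6*, *Cp* and *Dtx3l* (0.97, 0.96 and 0.96), and for *Thbs1* *Thrap3*, *Zscan29* and *Spen* (each 0.93). Without the library farthest from the median, which was ASP shDHPS 1 for 4 of the genes and ASP shSCR 2 for *Ltbp2*, r was 0.85 to 0.88 for the 3 genes like *Ltbp4* and 0.86 to 0.87 for those like *Thbs1*, and 0.91 to 0.94 for the others. Among the 5 genes themselves, r was 0.79 between *Ltbp3* and *Ltbp4*, 0.31 without ASP shDHPS 1 and 0.033 without all 3 libraries that stood apart. Between *Ltbp4* and *Thbs1* it was 0.79, and 0.55 and 0.63 without the same libraries.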

How the data were processed

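mRNA of the cytosolic lysate of 4T1 spheroids was sequenced from a stranded library kit. The authors trimmed reads with Trim Galore 0.6.6, mapped them to GRCm39 with STAR 2.6.1, estimated gene abundance with Salmon 1.4.0, rounded the estimates and deposited them as raw counts per gene, keeping genes seen in 2 or more replicates of some condition. Salmon divides reads between overlapping or similar transcripts by estimation. The authors also deposited their own DESeq2 and gene set results for ASP shSCR against NoASP shSCR (fold changes, p-values and scores), which were not used here.

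Groups came from the sample labels. Counts were tested with edgeR 4.0.16 in R 4.3.3 (TMM, quasi-likelihood, group as the only term, all 14 libraries, Benjamini-Hochberg over 19525 genes, threshold 0.05). CPM were scaled by TMM, and log2 CPM used a prior count of 2. Total counts were 12731123 to 23231378, and bounds at 0 counts use 3 counts and cover counting error only. The labels do not name separate cultures beyond replicate numbers, so p-values measure the spread between these samples. Replicates differed by more than sampling noise (chi-square per degree of freedom 7.69 to 41.8 in 18 pairs). Across 10224 genes, deviations of same-numbered ASP shSCR and NoASP shSCR libraries correlated (r = 0.51, 0.29 and 0.20), each over 0.1, so these numbers were taken to pair the libraries. What a number stands for is not given in the sources used here.

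The alternatives were DESeq2 1.42.0, other size factors, edgeR's filter on low counts (13421 genes kept, without *Fbn1*), only the groups compared, a replicate block, and fits without each library. The correction for GC content and length (18948 genes, 97% of the table) and the block without each pair were added after seeing the data. The 6 genes, the lists, the tests and the rule for named genes (the 6 genes, listed genes called in a comparison, up to 5 per list, the 3 ligands, and the 3 genes most like each gene with at least 10 counts in every library) were chosen with earlier results of these data known. Exon lengths, GC content and gene overlaps came from GENCODE M21 (GRCm38), matched by gene identifier, and promoters from RefSeq (GRCm38.p6), another build than that of the counts. The test was also run on simulated counts with known changes, and the outcome is not given here.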

Additional observations from a re-analysis of the deposited data

Results flagged for a closer look

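In 4 groups there was a library far from the other 3 by Dixon's test at 95%, which flags about 1 in 20 groups by chance, among 30 groups of 4 libraries tested. *Ltbp2* was at 62.5 CPM in ASP shSCR 2, above 23.7 to 26.5 CPM in the other 3 libraries, and *Mmp9* at 109.7 CPM in the same library. *Tgfb1* was at 81.3 CPM in ASP shDHPS 1, below 156 to 157 CPM in the others. *Tgfb3* was at 70.6 CPM in ASP shDHPS 3, above 62.4 to 62.9 CPM.

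The direct edgeR test of ASP shDHPS minus ASP shGRIN2D, of whether the effects of both hairpins differ, called 550 of 19525 genes (2.82%). Flagged among them are *Thbs1*, of the 6 genes, and 5 of the 34 listed genes in the table. The log2 difference was -0.54 for *Thbs1*, -1.92 for *Itgb3*, -0.59 for *Tgfb3*, -1.65 for *Thbs2*, -0.88 for *Fn1* and -0.72 for *Tgm2*, lower in ASP shDHPS in each case. The CPM ranges overlapped for *Fn1* and were separate for the others. How often ranges were separate over all genes was not counted.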

How the results depend on the processing

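For *Ltbp1*, *Ltbp2*, *Ltbp3*, *Ltbp4* and *Thbs1*, 286 of the values under another setting kept direction and side of the threshold, 12 newly passed it, 6 no longer passed it and 21 turned direction. The cause was not tested for any of these.

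The replicate block in all 14 libraries called 2, 611, 2150 and 1468 genes for aspartate, the hairpin against *Grin2d*, the hairpin against *Dhps* and the difference of both, where the fits without it called 0, 226, 824 and 550. For the hairpin against *Grin2d* r of same-numbered libraries was -0.10, -0.12 and 0.04, and for the difference of both 0.005, 0.03 and 0.23. For the hairpin against *Dhps* it was 0.26, 0.20, 0.20 and 0.04 in replicates 1 to 4. The first 3 of these are close to the 0.29 and 0.20 of replicates 3 and 4 for aspartate. In none of these last 3 comparisons was r over 0.1 in every pair, so the numbers were not taken to pair the libraries. There the block called 2 of the 6 genes in ASP shGRIN2D (*Ltbp2* -0.59, *Thbs1* 0.37), 3 in ASP shDHPS (*Ltbp2* -0.48, *Ltbp3* -0.37, *Thbs1* -0.28) and 2 in the difference (*Ltbp4* -0.54, *Thbs1* -0.65). For aspartate the block turned *Ltbp4* to 0.065 and *Tgfb1* to 0.055. In the 7 shSCR libraries alone the block called 64 genes, 1 of the 6 among them (*Ltbp2*), with *Ltbp4* at 0.024. With the correction for GC content and length it called 101 genes, again 1 of the 6, with *Ltbp4* at 0.038. Without pair 2 it called 49 genes (*Ltbp4* 0.0048, *Tgfb2* 0.43), without pair 3 58 genes, and without pair 4 103 genes and 1 of the 6 (*Ltbp1* 0.030, *Ltbp4* 0.10).

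DESeq2 called 440, 1398 and 920 genes in the 3 comparisons with hairpins. The fit of only the 2 groups compared called 374 genes for the hairpin against *Grin2d*. The correction for GC content and length called 356 genes there and 2 of the 6 (*Thbs1*, *Ltbp4*) in the difference of both hairpins, and turned *Ltbp4* to 0.0086 for aspartate, *Ltbp1* to 0.061 in ASP shDHPS, and *Ltbp1* to 0.019 and *Ltbp3* to 0.036 in the difference. Library size alone turned *Ltbp1* to -0.0065 in ASP shGRIN2D, and leaving out both shSCR replicate 2 libraries turned *Tgfb2* to 0.23 for aspartate.

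Without each library in turn, aspartate called 0 to 1 genes, with ranges of -0.18 to 0.77 for *Ltbp2*, -0.065 to 0.19 for *Ltbp3*, -0.073 to 0.039 for *Ltbp4*, -0.070 to 0.013 for *Tgfb1* and -0.62 to 0.014 for *Tgfb2*. ASP shGRIN2D minus ASP shSCR called 86 to 208 genes (*Ltbp1* -0.091 to 0.075). ASP shDHPS minus ASP shSCR called 412 to 894 genes and 0 to 1 of the 6 (*Tgfb1* -0.15 to 0.11). The difference of both called 209 to 577 genes and 0 to 2 of the 6 (*Ltbp3* -0.19 to 0.045, *Tgfb2* -0.12 to 0.33). *Ltbp2*, *Tgfb2* and *Thbs2* had the fewest counts of the genes with a fold, and *Fbn1* was too low for any.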
